A study of Mus musculus with 39 samples.

Results

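The MYC network of basic helix-loop-helix zipper transcription factors was followed in mouse cerebellar granule cells as 9 genes of the 24100 gene identifiers in the table. The members were chosen by name and not by any measured value, although earlier results of these data were known. They are the 3 MYC genes Myc, Mycn and Mycl, their common partner Max, the 4 MXD repressor genes Mxd1, Mxi1, Mxd3 and Mxd4, and Mnt. All 9 were found in the table, all 9 passed the filter on low counts in every comparison, and each had a value in all 39 libraries. MYC proteins bind DNA only as a pair with MAX, mostly at the E-box CACGTG, and recruit acetyltransferase complexes that raise transcription of genes for ribosome production, metabolism and the cell cycle. MXD proteins and MNT pair with the same MAX protein at the same sites and recruit SIN3 and histone deacetylases, so that the balance of partners sets whether a site is activated or repressed. In the cerebellum Mycn is a known target of Sonic hedgehog signalling and drives the division of granule cell progenitors, and it is an oncogene of medulloblastoma.

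Polyadenylated RNA was sequenced from C57Bl/6J cerebellum by TRAP, in which messenger RNA is pulled down with a GFP-tagged ribosomal protein that a chosen promoter expresses, and from cultured granule cells. The Math1 TRAP group (Math1 is another name of Atoh1) holds 4 libraries of granule cell progenitors isolated at postnatal day 7 (P7) from Tg(Atoh1-Egfp-L10a) mice. The Neurod1 TRAP groups hold 5 libraries each of whole cerebellar lysates from Tg(NeuroD1-Egfp-L10a) mice at P7, P12 and P21, and 1 input library of total cerebellum stands beside each age. The transgene promoter decides which cells are sampled, so the Math1 and Neurod1 groups differ in promoter and in starting material as well as in cell stage. The culture groups hold 2 libraries each: freshly isolated cells at day 0 in vitro (DIV0), cells at DIV2 and at DIV5 in the solvent DMSO alone, and DIV5 cells given 100 nM UNC1999, an inhibitor of the histone methyltransferases EZH2 and EZH1, all from P6 to P7 mice. A separate experiment holds DIV5 cultures from P7 mice, 5 libraries of Ezh1(wt/wt);Atoh1-Cre and 4 of Ezh1(cKO/cKO);Atoh1-Cre, so both arms carry Cre, and Cre is driven by Atoh1, which progenitors express. Nothing says that the replicates are separate animals or cultures, so p-values measure the spread between these libraries, which may be technical.

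Library totals ran from 12.1 to 38.5 M counts. Levels below are CPM, a gene's count relative to the total of its library, with the SD over libraries after ±. Fold changes come from edgeR's quasi-likelihood test with TMM scaling, a scaling that sets the bulk of genes level, with the SE after ± and p-values adjusted by Benjamini-Hochberg over all genes tested, and a change was called at an adjusted p under 0.05. A log2 fold change can therefore differ a little from the ratio of the CPM means. In the Math1 TRAP group the progenitor markers Atoh1, Barhl1, Gli1 and Gli2 summed to between 1810 and 2565 CPM, against 52.5 to 65.8 CPM in Neurod1 TRAP at P21. The summed level of 8 granule neuron markers was 3843 to 4614 CPM in the Math1 group and 10395 to 10925 CPM at P21, although from P7 to P21 4 of the 8 were higher and 4 lower. The TRAP libraries also held markers of other cells: at P21 the Purkinje markers summed to 712 to 855 CPM and the astrocyte markers to 483 to 635 CPM. Both sums were below those of the P21 input, 5106 and 2759 CPM. The unipolar brush cell list summed to 1430 to 1864 CPM at P21, above the 879 CPM of the input, so its sum is not read as RNA from outside the sampled cells. The 9 Ezh1 libraries fall into 2 sets that stand apart in both genotypes, replicates 1 and 2 against replicates 3 to 5, and values by set are given with those cultures. The Math1 libraries also split, with Mxi1 at 125 and 128 CPM in replicates 1 and 2 and at 172 and 168 CPM in replicates 3 and 4.

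The members lie apart in the genome (GRCm38, the assembly of mm10). Myc is at chr15:61985341-61990361, Mycn at chr12:12936093-12941836, Mycl at chr4:122995588-123002490 and Max at chr12:76937269-76962323. Of the repressors, Mxd1 is at chr6:86647044-86669234, Mxi1 at chr19:53310128-53373293, Mxd3 at chr13:55325170-55329900, Mxd4 at chr5:34176580-34187710 and Mnt at chr11:74830806-74845725. Counts are per gene, so isoforms are not told apart.

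Promoter sequence was available from RefSeq (GRCm38.p6, the same assembly as mm10) for 8 of the 9 members, as windows of 250 bases before to 50 bases after each start. The palindromic E-box CACGTG, the site read by both MYC:MAX and MXD:MAX pairs, occurred in the windows of 3 of these 8 genes, Max, Mxd4 and Mnt, against 8.09% of all genes with a window and 7.15% of all windows. In Max it lay across the start, from base -3 to base 3, in Mxd4 from -219 to -214 and in Mnt from -123 to -118. Positions are counted from the start used for each window. For Mycn and Mxd4 that start is the edge of the gene as located above. For Max and Mnt it lies inside the gene, whose edges are at 76962323 and 74830806. Some printed bases before the start are then within the gene. The Max E-box is inside the gene so located, and the Mnt E-box is at its edge. The E2F letters TTTCCCGC, TTTCGCGC, TTTGCCGC and TTTGGCGC, searched on both strands and counted with overlaps, occurred 3 times in Mycn between bases -183 and -161 and in none of the other 7 genes with a window (Myc had none), against 2.60% of all genes and 2.26% of all windows. The GLI letters GACCACCCA, the site of the Sonic hedgehog effectors, searched on both strands, were in none of these 8 genes' windows and in 0.253% of all windows. These 4 windows are printed because they carry the matches, in each case the 250 bases before the start, or 253 for Max. The Mycn stretch is chr12:12941837-12942086 on the minus strand, Max chr12:76962246-76962498 minus, Mxd4 chr5:34187711-34187960 minus and Mnt chr11:74830674-74830923 plus. Each is written 5′ to 3′ along the gene's strand, with the E2F letters of Mycn and the E-boxes of the others in capitals.
Mycn: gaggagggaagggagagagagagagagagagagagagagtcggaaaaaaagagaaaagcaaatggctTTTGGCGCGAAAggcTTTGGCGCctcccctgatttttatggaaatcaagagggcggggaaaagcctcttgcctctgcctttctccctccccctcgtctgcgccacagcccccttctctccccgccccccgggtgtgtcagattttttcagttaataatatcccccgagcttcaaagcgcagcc
Max: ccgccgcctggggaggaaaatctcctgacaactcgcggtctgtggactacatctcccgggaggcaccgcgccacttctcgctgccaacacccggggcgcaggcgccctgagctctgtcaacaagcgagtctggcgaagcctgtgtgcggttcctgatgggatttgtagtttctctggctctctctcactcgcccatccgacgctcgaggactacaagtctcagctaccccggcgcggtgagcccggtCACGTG
Mxd4: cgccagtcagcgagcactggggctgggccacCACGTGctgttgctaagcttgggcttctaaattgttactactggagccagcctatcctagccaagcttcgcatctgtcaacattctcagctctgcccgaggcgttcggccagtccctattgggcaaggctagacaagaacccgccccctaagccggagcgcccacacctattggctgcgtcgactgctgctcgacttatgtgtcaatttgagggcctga
Mnt: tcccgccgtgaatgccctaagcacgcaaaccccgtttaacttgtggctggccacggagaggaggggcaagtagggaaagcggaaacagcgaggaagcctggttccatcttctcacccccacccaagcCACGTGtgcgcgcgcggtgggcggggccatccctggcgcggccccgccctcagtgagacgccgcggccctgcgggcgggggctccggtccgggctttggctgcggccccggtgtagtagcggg
A match is a match of letters and was not tested for binding. Among the lists of genes known to be induced by MYC, described further on, 27.3% of 22 ribosome biogenesis genes and 36.4% of 22 metabolism genes with a window held the E-box. Of all genes 8.09% did. The share was also 28.6% of 7 known MYC-repressed genes, 50% of 4 genes of the wider MAX and MLX network, 12.5% of 8 corepressor genes and 8.33% of 12 MYC cofactors. It was 0% in the MYC turnover, other E-box factor, Sonic hedgehog and dividing-cell lists.

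Mycn stood highest of the 9 per length of transcript in Math1 TRAP and fell at every step in vivo. Its level was 285, 330, 198 and 241 CPM in the Math1 libraries, 98.3, 99.4, 98.1, 115 and 118 CPM in Neurod1 TRAP at P7, 21.3, 23.5, 29.5, 28.3 and 24.8 CPM at P12, and 1.09, 1.26, 1.43, 1.06 and 1.21 CPM at P21. No library of one group reached into the range of the next. The log2 fold change was -1.33 ± 0.12 from Math1 to Neurod1 at P7, -2.03 ± 0.12 from P7 to P12 and -4.24 ± 0.16 from P12 to P21, with adjusted p = 3.32e-09, 5.00e-12 and 2.40e-15 in edgeR's test. From P7 to P21 the change was -6.27 ± 0.16. No other annotated gene overlaps Mycn.

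Mycl, the MYC gene named from lung tumours, fell in the same steps. It stood at 188 to 218 CPM in the Math1 libraries, 79.7 to 93.9 CPM at P7, 25.4 to 36.3 CPM at P12 and 2.07 to 3.62 CPM at P21, again with no overlap. Its log2 fold changes were -1.25 ± 0.10, -1.52 ± 0.10 and -3.28 ± 0.12, each called, and -4.79 ± 0.13 from P7 to P21.

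Myc itself was under 10 CPM in every TRAP library and was the only MYC gene called higher in Neurod1 than in Math1 TRAP. It measured 4.70, 4.84, 4.46 and 3.31 CPM in the Math1 libraries and 8.33, 6.78, 8.09, 9.10 and 7.85 CPM in Neurod1 TRAP at P7, a rise of 0.87 ± 0.14 (log2; adjusted p = 7.84e-06, edgeR). Every P7 library stood above every Math1 library. It then fell to 1.86 to 2.44 CPM at P12 and 0.654 to 0.916 CPM at P21, where a library held 18 to 32 counts. The log2 changes were -1.92 ± 0.13 and -1.34 ± 0.15, and -3.26 ± 0.15 over the whole interval.

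**Figure D1:**
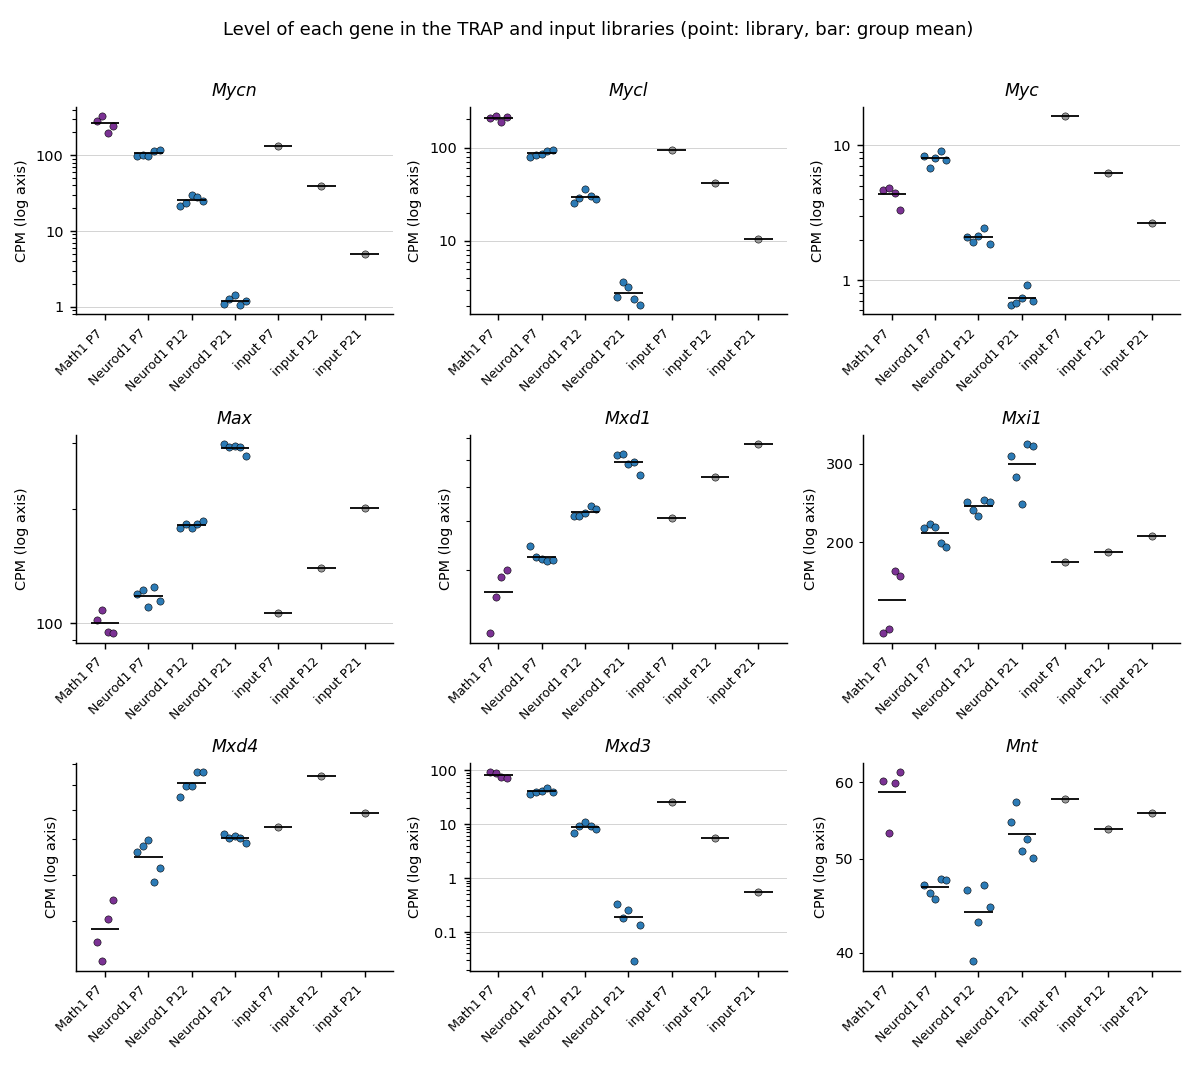
CPM of the 9 genes on log axes, with a point for each TRAP library (purple, Math1 at P7, 4 libraries; blue, Neurod1 at P7, P12 and P21, 5 each) and each input (grey, 1 an age), and a bar at the group mean. Mycn, Mycl and Mxd3 step down from Math1 to P21, Max and Mxd1 step up, and Mxd4 is highest of the TRAP groups at P12.

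Max, the common partner of the other members at the E-box, moved the opposite way. Its level was 102, 109, 94.9 and 94.1 CPM in the Math1 libraries, 110 to 124 CPM at P7, 179 to 186 CPM at P12 and 276 to 298 CPM at P21. The groups were separate at every step. The log2 change was 0.24 ± 0.06 from Math1 to Neurod1 at P7, 0.64 ± 0.06 from P7 to P12 and 0.83 ± 0.06 from P12 to P21, each called, with 1.47 ± 0.06 from P7 to P21. The step from Math1 was not called when only Math1 replicates 1 and 2 were kept (0.13 ± 0.06, adjusted p = 0.0663, edgeR).

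The MXD genes did not move as a block. Mxd1 (MAD1), a repressor known from differentiating cells, rose from 11.8 to 19.9 CPM in the Math1 libraries to 21.6 to 24.3 CPM at P7, 31.2 to 34.1 CPM at P12 and 43.9 to 52.3 CPM at P21, with log2 changes of 0.44 ± 0.10, 0.55 ± 0.09 and 0.75 ± 0.09. Mxi1, a SIN3-binding repressor of the same family, stood at 125 to 172 CPM in Math1, 195 to 220 CPM at P7, 229 to 248.7 CPM at P12 and 244 to 332 CPM at P21. Its steps were 0.50 ± 0.09, 0.23 ± 0.09 and 0.46 ± 0.09, all called, although the P12 and P21 libraries overlapped, and the P12 step was not called without P7 replicate 5 (0.19, adjusted p = 0.0636, edgeR).

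Mxd4 peaked at P12. Its libraries read 26.3, 23.3, 30.3 and 34.2 CPM in Math1, 46.1, 47.8, 49.6, 38.3 and 41.7 CPM at P7, 65.0, 69.5, 69.7, 75.9 and 75.8 CPM at P12, and 51.5, 50.3, 51, 50.5 and 48.8 CPM at P21. The log2 change was 0.66 ± 0.09, then 0.69 ± 0.08, then -0.34 ± 0.08 (adjusted p = 0.000719, edgeR). The P21 and P7 libraries overlapped, and the called difference of 0.35 ± 0.08 between them was 0.17 and not called (adjusted p = 0.0627, edgeR) when libraries were scaled by their size only.

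Mxd3 went with the progenitor genes instead of with the other MXD genes. MXD3 is the family member known from dividing cells, in S phase. It stood at 71.8 to 90.9 CPM in the Math1 libraries, 35.9 to 47.5 CPM at P7 and 6.78 to 11.1 CPM at P12, and the P21 libraries held only 9, 6, 9, 1 and 5 counts (0.327, 0.184, 0.257, 0.0286 and 0.134 CPM). The log2 changes were -1.01 ± 0.14, -2.17 ± 0.14 and -5.44 ± 0.24, and -7.61 ± 0.22 from P7 to P21, the largest fall among the 9. Mxd3 overlaps Prelid1 on the opposite strand, Mxi1 overlaps Gm10197 and an antisense transcript, and Mxd4 overlaps the antisense Gm42846. Max and Mxd1 overlap Gm47218 and Gm44292 on their own strand. Since the strand of the counting is not stated, reads of such neighbours cannot be told apart from the gene's own.

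Mnt, the repressor found in dividing and resting cells alike, changed by less than 0.5 on the log2 scale at each of these steps. It measured 53.1 to 61.4 CPM in Math1, 45.5 to 47.7 CPM at P7, 39.2 to 47.0 CPM at P12 and 50.1 to 57.2 CPM at P21. It was lower in Neurod1 than in Math1 TRAP at P7 (log2 -0.33 ± 0.06), did not pass the test from P7 to P12 (-0.07 ± 0.06, adjusted p = 0.318, edgeR, with overlapping libraries) and rose from P12 to P21 (0.42 ± 0.06).

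The shares of all genes called show how far these counts stand from the bulk. From Math1 to Neurod1 TRAP at P7 all 9 members were called, 5 higher and 4 lower, where 72.4% of 14759 tested genes were called, 36.5% higher and 35.8% lower. From P7 to P12 4 were higher, 4 lower and Mnt not called, against 68.2% of all genes, 31.5% higher and 36.7% lower. From P12 to P21 4 were higher and 5 lower, against 65.1%, with 32.4% higher and 32.7% lower. From P7 to P21 5 were higher and 4 lower, against 81.5%, with 38.9% higher and 42.5% lower. Being called is thus the usual state of a gene in these comparisons, and the members are set apart from each other by direction and size. These comparisons share groups, so a gene's values in them are not independent. In bulk RNA, fewer cells of a type and less RNA per cell cannot be told apart. The 10 dividing-cell genes, among them Mki67 and Top2a, summed to 3408 to 4435 CPM in Math1, 1214 to 1542 CPM at P7, 215 to 310 CPM at P12 and 68.0 to 79.8 CPM at P21, and all 10 fell at each step. The part of dividing cells in the falls of Mycn, Mycl and Mxd3 was not tested. All 6 Purkinje markers were higher at each step, with sums of 26.6 to 48.7 CPM in Math1, 186 to 271 CPM at P7, 483 to 592 CPM at P12 and 712 to 855 CPM at P21. From P7 to P12 the astrocyte sum went from 181 to 318 CPM to 519 to 615 CPM and the unipolar brush cell sum from 142 to 215 CPM to 502 to 823 CPM. Single genes of these lists were split. In the astrocyte list 5 of 7 genes rose and 1 fell from P7 to P12, whereas 1 rose and 4 fell from P12 to P21. The unipolar brush cell list had 2 of 4 genes up and 1 down over the first step. Over the second it had 1 up and 0 down. The part of these cells in the rises of Max, Mxd1 and Mxi1 was not tested.

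The inputs of total cerebellum showed the same order of ages as the TRAP means for every member but Mnt, at other levels. With 1 input an age, a fit with age as a factor called 8 of 9 members between Neurod1 TRAP and input, 5 higher and 3 lower, against 77.8% of 15479 genes, with 36.6% higher and 41.2% lower. Myc was lower in TRAP (log2 -1.06 ± 0.12), with an input of 16.6, 6.28 and 2.63 CPM at P7, P12 and P21, or 2.06, 3.02 and 3.57 times the TRAP mean. Mycn was also lower (-0.47 ± 0.17), and the input was 1.25 times the TRAP mean at P7 and 4.06 times at P21. For Mycl it was 1.09 times the TRAP mean at P7 and 3.78 times at P21 (-0.44 ± 0.19, adjusted p = 0.0479, edgeR), a call lost when most single libraries were left out. Without the P21 input only 4 members were called: Mycn was then at -0.11 (adjusted p = 0.359, edgeR), Mycl at 0.046, Mnt at 0.06 (adjusted p = 0.444) and Mxd4 at 0.18 (adjusted p = 0.0793). Without the P7 or the P12 input Mxd3 was not called either (adjusted p = 0.0666 and 0.0755). Max (0.74 ± 0.08), Mxi1 (0.75 ± 0.09), Mxd3 (0.82 ± 0.25), Mxd4 (0.21 ± 0.08) and Mnt (0.17 ± 0.07) were higher in TRAP, and Mxd1 was not called (0.03 ± 0.07, adjusted p = 0.700). This fit gives 1 effect common to the ages. For Mxd3 the TRAP mean was 1.58 and 1.61 times the input at P7 and P12 but 0.344 times at P21, on 1 to 9 counts a TRAP library. In CPM the TRAP means of Mxd4 and Mnt were below the input at P7, P12 and P21. Scaling to library size alone shifted the all-gene median by -0.40 (log2), and then Mxd4, Mnt and Mxd1 stood lower in TRAP instead and Mxd3 was not called (0.46, adjusted p = 0.107, edgeR). Of 4 unipolar brush cell markers 3 were higher in TRAP and 1 lower. All 7 astrocyte, 8 oligodendrocyte, 7 microglia and 8 vascular and meningeal markers were lower in TRAP. Astrocyte markers summed to 1914 to 2759 CPM in the inputs and 181 to 635 CPM in Neurod1 TRAP, and vascular and meningeal markers to 96.1 to 202 CPM and 12.1 to 29.1 CPM. The part of these cells in the Myc difference was not tested.

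In culture, cells leave the cycle without the cerebellum around them, and the network took another course. From DIV0 to DIV2 all 9 members were called, 8 lower and only Mxd4 higher, against 71.3% of 15978 genes, with 36.4% higher and 35% lower. Mycn stood at 182 and 181 CPM at DIV0, 42.4 and 37.4 CPM at DIV2 and 22 and 23.3 CPM at DIV5. The change was -2.15 ± 0.07 to DIV2 and a further -0.97 ± 0.08 to DIV5 (log2). Mycl followed at 108 and 105 CPM, then 44.4 and 41.2 CPM, then 20.9 and 20.5 CPM (-1.28 ± 0.07 and -1.19 ± 0.08). Both genes fell over each interval with no overlap of libraries.

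Myc fell and then rose again in the dish. It measured 35.5 and 36.0 CPM at DIV0, 4.93 and 7.66 CPM at DIV2 and 12.5 and 12 CPM at DIV5. The log2 change was -2.51 ± 0.14 to DIV2 and 0.86 ± 0.16 from DIV2 to DIV5 (adjusted p = 0.000302, edgeR). It was the only member called higher from DIV2 to DIV5, where 7 were lower and Mxd3 was not called (0.32 ± 0.23, adjusted p = 0.242), against 66.7% of all genes, 31.1% higher and 35.7% lower. Markers of other cells also moved. From DIV2 to DIV5 all 7 astrocyte, all 7 microglia and 6 of 8 vascular and meningeal markers were higher and none lower, while from DIV0 to DIV2 the vascular and meningeal list had 1 higher and 6 lower and the microglia list 3 higher and 3 lower. The vascular and meningeal sum, 552 to 561 CPM at DIV0, 2098 to 3548 CPM at DIV2 and 8116 to 8843 CPM at DIV5, thus rose to DIV2 while most of its genes fell. The 7 astrocyte markers summed to 495 to 499, 819 to 824 and 2007 to 2071 CPM and the 7 microglia markers to 55.5 to 56.1, 57.8 to 60.2 and 451 to 470 CPM. Dividing-cell genes summed to 3655 to 3754 CPM at DIV0, 226 to 293 CPM at DIV2 and 397 to 401 CPM at DIV5, and 7 of 10 rose between DIV2 and DIV5. The part of these cells in the Myc rise was not tested.

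Mxd4 was the MXD gene called higher in culture. It stood at 36.9 and 38.7 CPM at DIV0, 78.8 and 74.2 CPM at DIV2 and 64.6 and 68.5 CPM at DIV5, or 1.05 ± 0.06 up and then -0.34 ± 0.06 (log2), both called. Mxd3 dropped from 30.6 and 32.9 CPM to 2.03 and 2.80 CPM at DIV2 (-3.72 ± 0.17), with 3.02 and 3.46 CPM at DIV5. Mxd1 went from 46.0 and 45 CPM to 31.4 and 27.3 CPM and 23.3 and 22.2 CPM, the reverse of its course in vivo (-0.60 ± 0.08 and -0.52 ± 0.09). Mnt was at 100 and 105 CPM at DIV0, its highest level anywhere, and at 61.9 and 60.2 CPM at DIV2 (-0.72 ± 0.06). Max fell from 88.2 and 88.6 CPM to 79.3 and 76.2 CPM at DIV2 (-0.15 ± 0.06) and 75.2 and 72.5 CPM at DIV5. Mxi1 fell from 246 and 242 CPM to 221 and 213 CPM (-0.14 ± 0.05) and 206 and 203 CPM. From DIV2 to DIV5 the falls of Max (-0.22), Mxi1 (-0.23) and Mnt (-0.24) were called, but were not after scaling to library size alone, a shift of 0.14 in the all-gene median, nor when DIV2 replicate 1 was left out. From DIV0 to DIV5 Mxd4 alone was higher and the other 8 members were lower, against 78.3% of all genes, 40.2% higher and 38.2% lower.

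**Figure D2:**
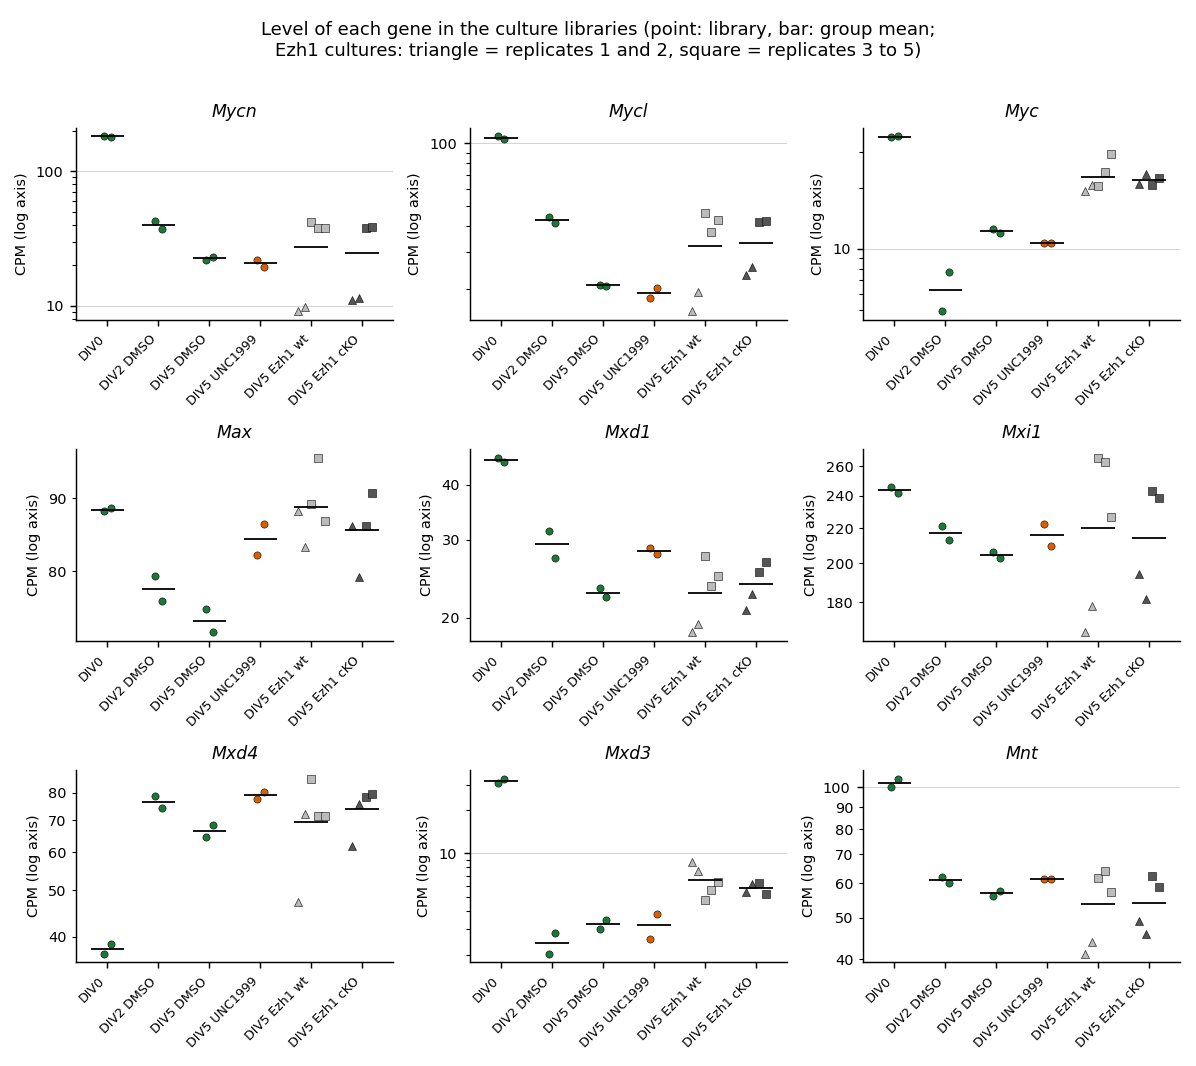
CPM of the 9 genes on log axes in the culture libraries, with a point for each library (green, DIV0 and DMSO; orange, UNC1999, 2 libraries each; grey, the separate Ezh1 cultures, 5 wt and 4 cKO) and a bar at the group mean. Myc dips at DIV2 and is higher at DIV5, Mxd4 is the one gene above its DIV0 level in both DMSO groups, and in both Ezh1 genotypes replicates 1 and 2 (triangles) lie apart from replicates 3 to 5 (squares) for Mycn, Mycl, Mxd1, Mxi1 and Mnt.

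The change from DIV0 to DIV5 was set against the change from P7 to P21 in a single fit, a contrast added after seeing the data. The starting points differ (isolated cells at DIV0, Neurod1 TRAP at P7), and so do the intervals. All 9 members differed, with 5 higher and 4 lower in culture relative to in vivo, against 64.9% of 16606 genes, with 35.9% higher and 29% lower, and the median of all genes was 0.12. Max rose by 1.47 in vivo and changed by -0.37 ± 0.06 in culture, a difference of -1.83 ± 0.10 (adjusted p = 2.82e-14, edgeR). Mxd1 (1.30 in vivo, -1.11 ± 0.08 in culture), Mxi1 (0.69 and -0.36 ± 0.05) and Mnt (0.35 and -0.96 ± 0.06) likewise went up in vivo and down in culture. Mycn, Mycl, Myc and Mxd3 fell in both, by less in culture: -3.12 ± 0.08, -2.47 ± 0.07, -1.66 ± 0.13 and -3.40 ± 0.16. Mxd4 rose in both, by 0.70 ± 0.06 in culture, and its difference of 0.37 ± 0.14 was lost when any of 6 single libraries was left out.

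**Figure D3:**
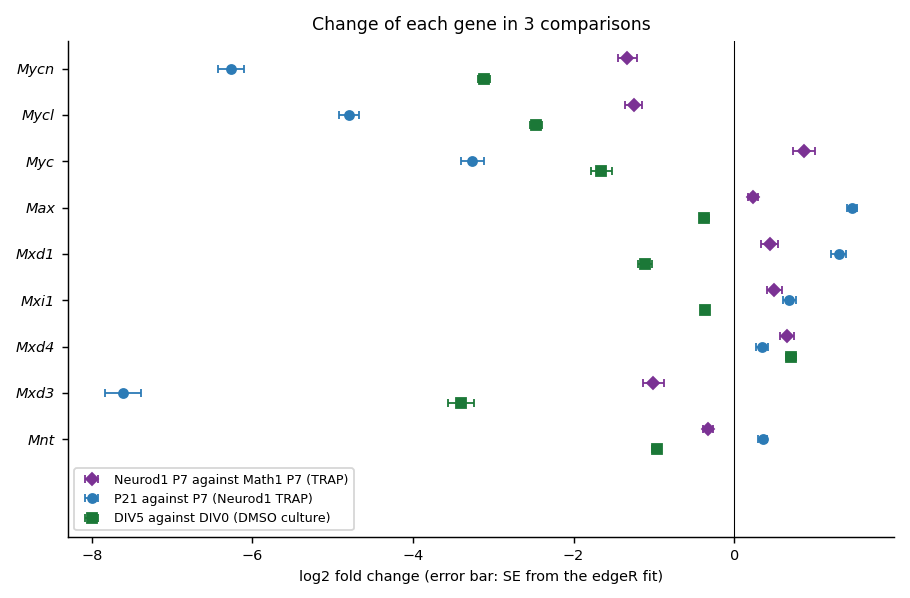
Log2 fold change of each gene (point) with the SE from edgeR (bar) in 3 comparisons: Neurod1 against Math1 TRAP at P7, P21 against P7, and DIV5 against DIV0. Max, Mxd1, Mxi1 and Mnt lie right of 0 for P21 against P7 and left of 0 for DIV5 against DIV0.

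Levels of different genes were compared per kilobase (kb) of the longest coding transcript. In Math1 TRAP the order was Mycn at 98.5, Mxd3 at 61.0, Mycl at 58.8, Max at 51.4 and Mxi1 at 29.5 CPM per kb, with Myc last at 1.85. At P21 it was Max at 149.7, Mxi1 at 59.5, Mxd4 at 13, Mnt at 11.6 and Mxd1 at 10.5, with the 3 MYC genes and Mxd3 each under 1. The 5 repressor genes summed to 114 CPM per kb in Math1 and 98.7, 89.6 and 94.7 at P7, P12 and P21, while the 3 MYC genes summed to 159, 67.7, 18.9 and 1.56. The ratio of the repressor to the MYC sum was 0.718 in Math1 TRAP, and 1.46 at P7, 4.73 at P12 and 60.7 at P21 in Neurod1 TRAP. In the inputs it was 1.06, 2.82 and 13.6 at these ages. In culture it was 1.01 at DIV0, 2.82 at DIV2 and 3.95 at DIV5. The rise of the ratio came with a falling MYC sum in vivo and in culture. The repressor sum also fell in culture, from 114 at DIV0 to 84.3 at DIV2 and 77.5 CPM per kb at DIV5. In the inputs the repressor sum was 88.4, 82.0 and 81.1 CPM per kb at P7, P12 and P21. In the TRAP groups it lay between 89.6 and 114 CPM per kb, but its members changed. Mxd3 went from 61.0 in Math1 to 0.14 at P21, and Mxi1 from 29.5 to 59.5. Transcript sums say nothing of protein, and these ratios were not tested.

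**Figure D4:**
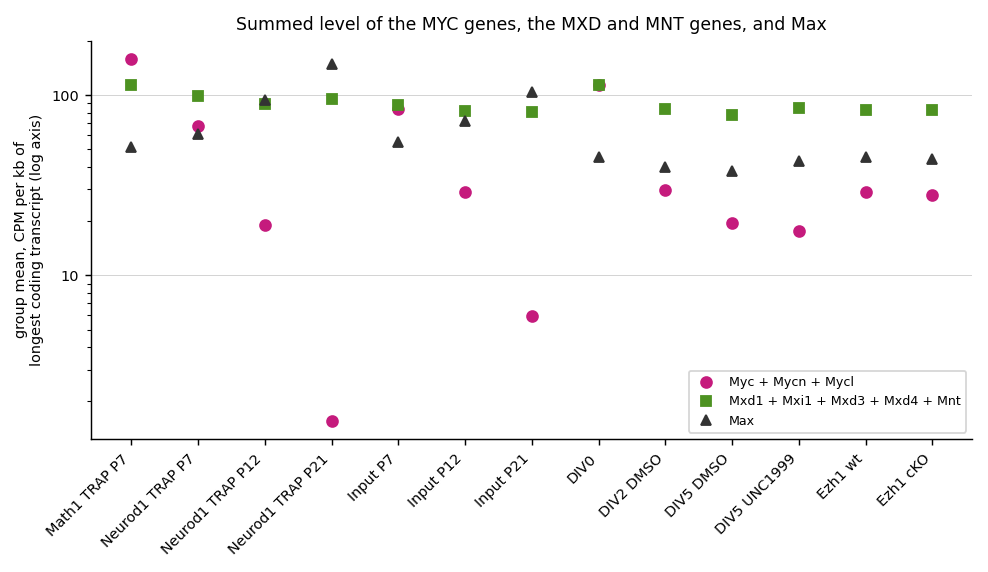
Group means, in CPM per kb of longest coding transcript on a log axis, of the 3 MYC genes together, the 5 MXD and MNT genes together, and Max, in all 13 groups. The MYC sum goes from 159 in Math1 TRAP to 1.56 at P21, while the repressor sum lies between 77.5 and 114 in every group.

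Treatment with UNC1999 left the MYC genes near their DMSO levels. Mycn stood at 22 and 23.3 CPM with DMSO and 21.8 and 19.6 CPM with UNC1999 (log2 -0.14 ± 0.08, adjusted p = 0.328, edgeR), Mycl at 20.9 and 20.5 against 18 and 20.3 CPM (-0.11 ± 0.08) and Myc at 12.5 and 12 against 10.7 and 10.6 CPM (-0.20 ± 0.14). None of these was called. The called members were 3, all higher: Max at 82.1 and 86.3 CPM (0.19 ± 0.06, adjusted p = 0.0460), Mxd1 at 28.7 and 27.9 CPM (0.31 ± 0.09, adjusted p = 0.0294) and Mxd4 at 77.6 and 80.3 CPM (0.24 ± 0.06, adjusted p = 0.0154). None was lower, and 11.9% of 15978 genes were called, 6.36% higher and 5.53% lower. The calls rest on few libraries: DESeq2 called 0 of the 9, leaving out any 1 of the 4 libraries left 0 or 1, and with a replicate block Max was lost. Astrocyte markers summed to 1693 to 1865 CPM with UNC1999 against 2007 to 2071 CPM with DMSO, vascular and meningeal markers to 6641 to 6738 against 8116 to 8843 CPM, and granule neuron markers to 4594 to 4703 against 3378 to 3502 CPM. Their part in the 3 calls was not tested.

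In the Ezh1 cultures the targeted gene was checked first. Ezh1 stood at 40.7, 42.1, 49.9, 47.5 and 41.0 CPM in the wt libraries and 34.8, 36.5, 35.6 and 33.7 CPM in the cKO libraries. All cKO libraries were below all wt libraries, but the change of -0.34 ± 0.09 (log2) did not pass over all genes (adjusted p rounds to 1, edgeR), and counts per gene do not show whether a deleted exon is missing. The sets did not overlap for Mycn, Mycl, Mxd1, Mxi1 and Mnt, and they did for the other members. The share of all genes whose sets stand apart was not counted, so this is not read as a trait of these members. Mycn was 9.16 and 9.85 CPM in wt and 11.1 and 11.5 CPM in cKO replicates 1 and 2, but 42.3, 37.9 and 37.7 CPM in wt and 38.2 and 38.3 CPM in cKO replicates 3 to 5. Mycl likewise ran from 15.6 to 25.3 CPM in the first set and 37.3 to 46.0 CPM in the second, Mxi1 from 166 to 194 against 226 to 266 CPM, and Mnt from 41.3 to 49.1 against 57.2 to 64.2 CPM. Neurod1 was at 535 to 690 CPM in the first set and 1067 to 1361 CPM in the second, microglia markers summed to 243 to 336 against 27.3 to 50.9 CPM and oligodendrocyte markers to 829 to 1263 against 199 to 296 CPM. The part of these cells in the difference between sets was not tested.

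No member was called between Ezh1 cKO and wt, where 0% of 14461 genes were called in edgeR's test, 169 genes had an unadjusted p under 0.05, and DESeq2 called 1 gene. The wt and cKO libraries overlapped for all 9 members. Their log2 changes lay between -0.21 ± 0.22 (Mxd3) and 0.08 ± 0.15 (Mxd4), and Mycn was at -0.14 ± 0.59. Within the sets Mycn was at 0.22 ± 0.17 in replicates 1 and 2 and -0.03 ± 0.09 in replicates 3 to 5, and Mycl at 0.45 ± 0.17 and 0.01 ± 0.10, none called. With a replicate block the Mycn change was 0.06 ± 0.10 and the Mycl change 0.22 ± 0.12, also not called.

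Lists of genes that MYC is known to induce or repress, and of its partners' cofactors, were followed beside the members. Of 28 ribosome biogenesis genes, 26 were lower and 0 higher in Neurod1 than in Math1 TRAP at P7, and 23 were lower and 1 higher at P21 than at P7, with medians of -0.74 and -0.71 (log2) where the median of all genes was 0.01 and -0.05. Fibrillarin (Fbl), the methyltransferase of ribosomal RNA, changed by -0.99 ± 0.08 and -1.56 ± 0.08, nucleolin (Ncl) by -0.80 ± 0.09 and -1.77 ± 0.09, Pa2g4, a ribosome-associated growth regulator, by -0.73 ± 0.08 and -1.30 ± 0.08, and Pes1, of the pre-60S processing complex, by -0.46 ± 0.06 and -0.95 ± 0.06. From DIV0 to DIV5 all 28 were lower (median -0.92, against 0.04 for all genes). Of all genes 35.8%, 42.5% and 38.2% were lower in these comparisons, in this order, and 36.5%, 38.9% and 40.2% higher. The summed level of 27 of them was 3913 to 4593 CPM in Math1 and 1093 to 1181 CPM at P21.

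Of 25 metabolism and growth genes, 19 were lower and 3 higher in Neurod1 than in Math1 TRAP, 18 were lower and 4 higher from P7 to P21 (median -1.33), and 22 were lower and 2 higher from DIV0 to DIV5 (median -0.95). Of all genes 35.8%, 42.5% and 38.2% were lower and 36.5%, 38.9% and 40.2% higher, with medians of 0.01, -0.05 and 0.04. The D-type cyclin Ccnd2 changed by -7.75 ± 0.19 from P7 to P21, hexokinase Hk2 by -3.81 ± 0.12, the phosphoribosyl pyrophosphate synthetase Prps2 by -2.91 ± 0.11 and mitochondrial serine hydroxymethyltransferase Shmt2 by -2.01 ± 0.07. Hk2 had been higher in Neurod1 than in Math1 TRAP (1.41 ± 0.12), as Myc was. Of 8 genes that MYC is known to repress, 3 were higher and 5 lower from P7 to P21. Gadd45b, a stress-response gene, rose by 3.13 ± 0.12 and Ndrg2, a gene of differentiated cells, by 1.08 ± 0.09, while the cell cycle inhibitor Cdkn1b changed by -0.60 ± 0.05 and Gadd45a by -0.62 ± 0.09. With UNC1999, 1 ribosome biogenesis gene and 5 metabolism genes were lower and none of either list higher. Of all genes 5.53% were lower and 6.36% higher, so the ribosome biogenesis count is within the background. The list counts were not repeated under the alternatives, where DESeq2 called 955 genes in place of 1899 with UNC1999. Leaving out a library gave 932 to 1297 called genes. Between Ezh1 cKO and wt none of either list was called.

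**Figure D5:**
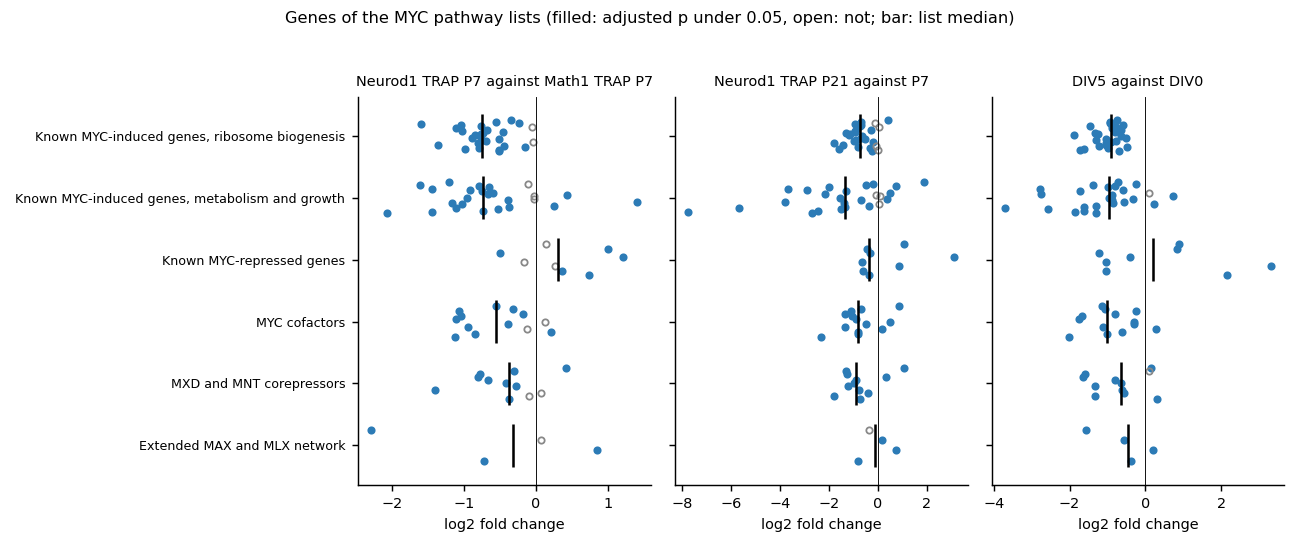
Log2 fold change of each gene (filled, adjusted p under 0.05 in edgeR; open, not) in 6 lists around the MYC network, for 3 comparisons with their own axes, with a bar at each list's median. The ribosome biogenesis medians lie at -0.74, -0.71 and -0.92, and the MYC-repressed genes lie on both sides of 0.

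Of 13 MYC cofactors, 10 were lower and 3 higher from P7 to P21 (median -0.82), where 42.5% of all genes were lower and 38.9% higher. The lower ones included the scaffold Trrap (-1.09 ± 0.09), the chromatin remodeler Ep400 (-1.35 ± 0.10), the actin-like subunit Actl6a (-2.30 ± 0.10) and Smarcb1 of the BAF complex (-1.35 ± 0.06). From DIV0 to DIV5 12 were lower and 1 higher, where 38.2% of all genes were lower and 40.2% higher. Of 11 corepressor genes of MXD and MNT, 9 were lower and 2 higher from P7 to P21 (median -0.87): Sin3a (-1.25 ± 0.08), Sin3b (-1.28 ± 0.06) and Hdac2 (-1.78 ± 0.09) fell, and Suds3, a SIN3 complex subunit, rose by 1.09 ± 0.06. Of 10 genes that act on MYC protein turnover, 7 were lower and 3 higher. The lower ones included Skp2 (-2.68 ± 0.12), Cip2a (-4.02 ± 0.11), Aurka (-4.94 ± 0.17) and Plk1 (-6.03 ± 0.16), the last 2 being mitotic kinases. In the wider network Mlx, the partner of the glucose-sensing factors, rose by 0.76 ± 0.06 and Mga, a MAX partner with repressor function, changed by -0.80 ± 0.13. Of 5 other E-box factors tested 4 rose and none fell, with Tfeb, a regulator of lysosome genes, at 2.63 ± 0.14 and Usf2 at 0.88 ± 0.06. Of 8 Sonic hedgehog response genes, all 8 were lower in Neurod1 than in Math1 TRAP at P7 (median -1.61), where 35.8% of all genes were lower. From P7 to P21 5 of them were lower, 2 higher and 1 not called (median -2.57).

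Likeness was measured as Pearson's r of log2(CPM + 1) over the 13 group means, among 11333 genes whose group means averaged 5 CPM or more. Groups of one kind share their method and cells, so r is a description. Mycn was most like Mycl (r = 0.989), then Midn and Ezh2 (0.985 and 0.983), the last being the methyltransferase that UNC1999 inhibits. Mycl was most like Mycn, then Ppp1r14b and Ezh2 (0.987 and 0.981). Mxd3 was most like Ube2c, Cdca7 and Gins1 (0.993, 0.993 and 0.991), all genes of dividing cells. Max was most like Rabl6, Cdip1 and Patj (0.984, 0.982 and 0.981), and Mxd4 like Cacna2d3, Arntl and Adamts18 (0.969, 0.966 and 0.965). Mxd1 was most like Cisd2 and Ypel2 (0.952 and 0.951), Mnt like Heca, Apold1 and Pcf11 (0.931, 0.930 and 0.926) and Mxi1 like Dusp8, Tmem178 and Cited2 (0.916, 0.874 and 0.872). Myc stood apart from the other MYC genes, with r = 0.548 to Mycn and 0.506 to Mycl, and was most like Cul1, Tenm3 and Bnip2 (0.939, 0.937 and 0.935).

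The order of the groups also separates the members. Mycn and Mycl were highest in Math1 TRAP and then in DIV0, the P7 input and Neurod1 TRAP at P7, none of which overlapped the next, while DIV2, the P12 input, both Ezh1 groups and Neurod1 TRAP at P12 followed with ranges that overlap their neighbours. Myc was highest at DIV0 (35.7 ± 0.3 CPM), then in the Ezh1 wt (22.7 ± 4.1 CPM) and cKO (21.9 ± 1.3 CPM) cultures, which overlap, and lowest at P21. Max was highest at P21 and lowest at DIV5 with DMSO, and its middle groups from the P7 input down to UNC1999 overlap their neighbours. Mxi1 overlaps between most neighbours, from P21 down to the P21 input.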

How the data were processed

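The authors deposited 1 table for the 39 libraries, with 1 row per Entrez gene, of estimated counts as whole numbers without normalization. Salmon 0.8.2 and mm10 are listed, without roles, per the submitters' processing notes, and the annotation, the summing of transcripts to genes, the strand and any filter are not given in the sources used here. Of 24100 identifiers 24045 were matched to a symbol in the RefSeq GRCm38.p6 table, and the 55 others hold 0.0361% of a library's counts on average. In the 9 Ezh1 libraries 1041 genes are blank, none a member, and were left out there. CPM is the count divided by the library total. No 2 replicates of a group held identical values. Pairs of replicates were also compared by a chi-square per gene, which is about 1 when only counting noise separates them. It was 1.45 for the DIV0 pair and 4.23 to 215 for all other pairs. Whether the DIV0 libraries are technical repeats is not stated.

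Libraries were grouped by their labels. Tests were two-sided quasi-likelihood tests in edgeR 4.0.16 (R 4.3.3) after filterByExpr (minimum count 10, minimum total 15) and TMM scaling, adjusted by Benjamini-Hochberg over all genes tested. The 4 TRAP groups, the 4 culture groups and the 2 Ezh1 groups were each fitted together, and Neurod1 TRAP and input with age as a factor. The test was checked on simulated data. Alternatives were library size scaling, DESeq2 1.42.0, no filter, a replicate block, fits of the groups compared alone and each library left out. The culture against in vivo contrast, the splits of the Ezh1 and Math1 libraries and the crossed numbers were added after seeing the data.

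The members and lists were chosen with earlier results of these data known. All 9 members are named, with up to 4 genes a list, those of smallest adjusted p from P7 to P21, the check genes Ezh1, Ezh2, Mki67, Atoh1, Neurod1 and Gabra6 where a result turns on them, and for each member the 3 most alike genes, of which 1 is not reported here. Same-numbered Ezh1 libraries deviated together (correlations 0.821 to 0.900 in all 4 pairs). Libraries with other numbers of the same set did so as well, at 0.788 to 0.905. The numbers therefore show no pairs beyond the sets. The main Ezh1 test was unpaired, and the replicate block was an alternative.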

Additional observations from a re-analysis of the deposited data

Results flagged for a closer look

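In Neurod1 TRAP at P21, replicate 5 held 276 CPM of Max, below the other 4 libraries by more than their spread. In Neurod1 TRAP at P7, replicate 1 held 24.3 CPM of Mxd1, above the other 4 libraries. These 2 libraries were found among 54 sets of a member and a group, and chance flags about 1 in 20 sets.

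The change from DIV0 to DIV5 differed from the change from P7 to P21 for all 9 members in a test of the difference itself. The log2 difference, culture minus in vivo, was 3.16 for Mycn, 2.34 for Mycl, 1.62 for Myc and 4.23 for Mxd3, which fell by less in culture. It was -1.83 for Max, -2.40 for Mxd1, -1.04 for Mxi1 and -1.30 for Mnt, which went up in vivo and down in culture, and 0.37 for Mxd4. Of all genes 64.9% differed, so a difference in itself is common. The comparison also sets ribosome-bound RNA against total polyadenylated RNA, and the part of that was not tested.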

How the results depend on the processing

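Of 1124 values of called members under an alternative, 1064 kept direction and call, 57 kept direction only and 3 changed direction, and of 244 values of members not called 32 changed direction. Of 304 counts 290 stayed within 1.5 times. For TRAP against input, members called ran from 4 to 8 with a library left out, Mycl from -0.74 to 0.046 and Mxd1 from -0.084 to 0.12; with library size only Mxd1 was at -0.36, Mxd4 at -0.19 and Mnt at -0.22. For DIV5 against DIV2, 5 members were called with library size only and 5 to 8 with a library left out. For UNC1999, DESeq2 called 0 members and 955 genes in place of 1899, and leaving out a library gave 0 to 1 members and 932 to 1297 genes; Mxd3 was at -0.017 in DESeq2, -0.000105 with the replicate block and -0.34 to 0.23 with a library left out. For Ezh1 cKO, DESeq2 and a library set term each called 1 gene. There the replicate block put Myc at 0.032 and Mycn at 0.058, the set term Mycn at 0.070 and Mxi1 at 0.0083, replicates 1 and 2 alone Myc at 0.11, Mycn at 0.22 and Mxi1 at 0.094, and replicates 3 to 5 alone Mxd3 at 0.065 and Mnt at -0.0019. With a library left out Myc ran from -0.10 to 0.030, Mycn from -0.43 to 0.10, Mycl from -0.12 to 0.21, Mxi1 from -0.11 to 0.036, Mxd4 from -0.011 to 0.16 and Mnt from -0.063 to 0.082. The cause of these shifts was not tested. With library size only, the share of calls that were higher went from 49.8% to 35.7% for P21 against P12, from 47.1% to 25.6% for TRAP against input, from 46.6% to 57.4% for DIV5 against DIV2 and from 55.3% to 67.7% for culture against in vivo. Same-numbered TRAP and culture libraries did not deviate together (over 0.1 in 3 of 27 and 0 of 12 pairs), and there the replicate block changed no member call except that of Max with UNC1999; for DIV5 against DIV2, crossing the DIV2 numbers gave 10923 called genes, against 10478 with the numbers as given. Depth limits Mxd3 at P21, where a library held 1 to 9 counts.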

Other observations

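Levels of the MYC genes also differed between kinds of library, in groups that no test joins. Freshly isolated cells at DIV0 held 35.5 and 36.0 CPM and Math1 TRAP libraries of isolated P7 progenitors 3.31 to 4.84 CPM, while Mycn stood at 181 to 182 CPM and 198 to 330 CPM and Mycl at 105 to 108 CPM and 188 to 218 CPM. At DIV5 Myc was at 12 to 12.5 CPM with DMSO and 19.3 to 29.3 CPM in the separate Ezh1 cultures, Mycn at 22 to 23.3 CPM and 9.16 to 42.3 CPM, and Mycl at 20.5 to 20.9 CPM and 15.6 to 46.0 CPM. Vascular and meningeal markers summed to 552 to 561 CPM at DIV0 and 41.9 to 84.0 CPM in Math1 TRAP, and their part was not tested.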
